A study of Mus musculus with 4 samples.

Results

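Collagen genes were examined in C2C12 cells, a mouse myoblast line, after 6 h in growth medium with recombinant GDF10 (growth differentiation factor 10, a relative of the bone morphogenetic proteins) or with vehicle. RNA sequencing was done on 2 GDF10 libraries and 2 vehicle libraries, described by the submitters as biological replicates. The sources used here give no dose of GDF10. Both groups are the same unmodified line with no further allele or agent named. Members were the protein-coding genes whose symbol is Col, a number, a and a number, which gave 44 of the 51826 genes in the count table. They fell into 11 fibrillar chains, 8 chains of basement membranes, 9 fibril-associated collagens (FACIT) and 16 others.

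Collagens are trimers of chains that wind into a triple helix built on a repeated glycine motif. Fibrillar collagens assemble into the banded fibrils of connective tissue, type IV collagens form the sheet-like network of basement membranes, and FACIT collagens sit on the surface of fibrils. Type VI collagen forms beaded filaments in the matrix around muscle fibres. Around muscle, type IV and type VI collagens lie next to the cell, and types I and III make up most of the connective tissue. TGF-beta ligands are known to raise fibrillar collagen transcription in fibroblasts.

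Total counts were 29944193 and 35057429 in GDF10 1 and GDF10 2, against 35597310 and 29641165 in vehicle 1 and vehicle 2. Levels of 1 gene across libraries are given as CPM, counts scaled to library size with TMM factors, and some low levels as unscaled counts. Levels between genes are given as TPM, which also divides by exon length. Of 8 myoblast markers 7 reached 1 CPM, with summed levels of 2335 to 2347 CPM in GDF10 libraries and 2278 to 2286 CPM in vehicle libraries; the satellite cell gene Pax7 had 0 counts in all 4. The RNA protocol in the labels mentions longissimus dorsi, a muscle, where C2C12 cells are named elsewhere. Of 8 markers of mature fibres 4 reached 1 CPM, with sums of 83.7 to 85.4 CPM in GDF10 libraries and 73.8 to 78.6 CPM in vehicle libraries. Most of this was Actn3, at 77.2 and 73.5 CPM with GDF10 and 64.9 and 68.5 CPM with vehicle. Ckm had 4.94 and 5.19 CPM with GDF10 and 4.98 and 4.43 CPM with vehicle. Mb had 1.57 and 2.64 CPM with GDF10 and 1.60 and 2.33 CPM with vehicle. Of the fast myosin genes, Myh1 had 30 and 76 counts with GDF10 and 53 and 72 with vehicle. Myh4 had 0 and 0 counts with GDF10 and 4 and 0 with vehicle. Of 9 fibroblast markers 7 reached 1 CPM, with sums of 271 to 275 CPM with GDF10 and 250 to 253 CPM with vehicle. Ly6a was the highest, at 103 CPM in each GDF10 library and 82.5 and 80.5 CPM with vehicle. Lum and Thy1 had 0 to 2 counts per library. Endothelial markers summed to 2.30 to 2.87 CPM with GDF10 and 2.16 to 2.44 CPM with vehicle. The part of other cell types in the collagen levels was not tested. In these bulk libraries fewer expressing cells and less RNA per cell cannot be told apart. GDF10 1 stood apart for long transcripts: across 15431 genes, the Spearman rho between exon length and its deviation from the 4-library mean was −0.33, against 0.08 in GDF10 2, 0.11 in vehicle 1 and 0.20 in vehicle 2. Genes are not independent replicates. Collagen genes are long, with a median exon length of 7242.5 bases among those tested, against 3839 for all genes tested.

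Promoter stretches are shown for the leading pair of members by level, Col1a2 and Col3a1, and for the 71 bases between Col4a4 and Col4a3, a head-to-head pair that was nearly silent here. They come from RefSeq on GRCm38.p6 (mm10), read 5′ to 3′ on each gene's own strand, cut to bases outside annotated exons. The table of promoters held 35 of the 44 members. Capitals mark GGGCGG and TATAAA, searched with CCAAT on both strands in the 250 bases before each start. The Col1a2 stretch is chr6:4505370-4505492 (plus strand), the Col3a1 stretch chr1:45311288-45311537 (plus strand) and the Col4a4 stretch chr1:82586850-82586920 (minus strand). In the annotation used for exon lengths Col1a2 starts at 4504814, before the RefSeq start, so its stretch lies inside that annotated gene.
Col1a2: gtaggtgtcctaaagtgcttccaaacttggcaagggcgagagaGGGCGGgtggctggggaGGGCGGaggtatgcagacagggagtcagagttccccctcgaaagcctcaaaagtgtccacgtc
Col3a1: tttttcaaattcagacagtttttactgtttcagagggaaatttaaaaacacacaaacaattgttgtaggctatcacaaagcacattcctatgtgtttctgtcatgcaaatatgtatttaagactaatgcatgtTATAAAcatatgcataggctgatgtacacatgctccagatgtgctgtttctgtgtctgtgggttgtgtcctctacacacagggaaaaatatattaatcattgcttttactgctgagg
Col4a4: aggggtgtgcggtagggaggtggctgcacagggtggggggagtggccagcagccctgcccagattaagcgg

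GGGCGG lay 205 and 188 bases before the Col1a2 start and TATAAA 117 bases before the Col3a1 start, while CCAAT lay 109 bases before the Col1a2 start, past the printed stretch. The Col4a4 window held none of these letter strings. GGGCGG was present in 32.7% of 32851 RefSeq promoter windows of the same length, CCAAT in 33.9% and TATAAA in 12.4%. Among 38 windows of the 35 matched collagen genes, 22 held GGGCGG, 13 CCAAT and 5 TATAAA. These matches describe letters only.

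Collagen transcripts took 1.16% and 1.33% of all counts in GDF10 1 and GDF10 2, against 1.19% and 1.29% in vehicle 1 and vehicle 2. The groups overlapped, with the lowest and the highest share both among GDF10 libraries. The means of 1.25% ± 0.118 with GDF10 and 1.24% ± 0.0649 with vehicle (SD, n = 2 each) differed by 0.0066 percentage points, with a p of 1 in a two-sided exact permutation test whose smallest possible p is 0.333. The difference was 0.0899 without GDF10 replicate 1 and −0.0767 without GDF10 replicate 2. It was −0.0393 without vehicle replicate 1 and 0.0525 without vehicle replicate 2, so its sign turned on the library left out.

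Fibrillar chains made up 68.6% and 66.3% of the summed collagen TPM in GDF10 1 and GDF10 2, and 66.7% and 65.8% in vehicle 1 and vehicle 2. Basement membrane chains made up 9.23% and 11.04% with GDF10 and 10.8% in each vehicle library. FACIT chains made up 3.001% and 3.43% with GDF10 and 3.40% and 3.53% with vehicle, and the other collagens 19.2% and 19.3% with GDF10 and 19.1% and 19.8% with vehicle. In each of the 4 classes the GDF10 and vehicle libraries overlapped, and GDF10 1 had the highest fibrillar share and the lowest basement membrane and FACIT shares. With the longest annotated transcript as gene length in place of the union of exons, the fibrillar share over all libraries was 74.8% against 66.8%.

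**Figure D1:**
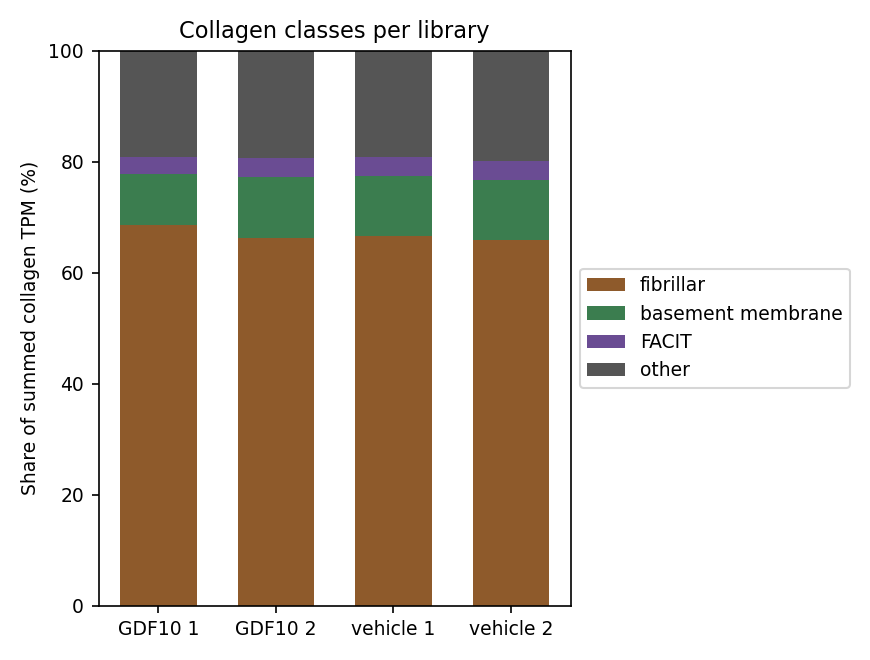
Each bar is 1 library (GDF10 left, vehicle right) and its colours give the percent of summed collagen TPM in each class. Fibrillar chains take 65.8% to 68.6% in the 4 libraries, and GDF10 1 has the lowest basement membrane share, 9.23%.

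In the test of GDF10 against vehicle, 30 of the 44 collagen genes had enough counts to enter and 0 passed 0.05 after Benjamini-Hochberg adjustment (quasi-likelihood test of edgeR). Of all 15467 genes tested 0.162% passed. At an unadjusted p under 0.05 edgeR gave 1 collagen gene higher, Col6a2, beside 2.44% of all genes tested, and 0 lower, beside 3.49%. Over both directions the share of all genes was 5.94%. At that level DESeq2 and limma-voom each gave 0 and called 0. The count was 3 of 30 with the exon length trend removed, and 4 of 30 with a replicate block as well. The shares of all genes in those fits are not given here, so these counts cannot be set against them. The 30 genes had 14 positive and 16 negative log2 fold changes with a median of −0.0032, beside a median of 0.0029 over all genes tested. In 4 of the 30, the GDF10 and vehicle libraries did not overlap (Col6a2, Col10a1 and Col28a1 higher, Col24a1 lower). Of all genes tested 38.2% did not overlap, 18.8% higher and 19.4% lower. The 95% interval of the log2 fold change lay within ±1 for 23 of the 30 and within ±0.5 for 14. These intervals give the changes that could have gone unseen, and an adjusted p above the threshold does not show equal levels. The 30 genes passed a filter on counts in either group, so they do not stand for all 44.

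**Figure D2:**
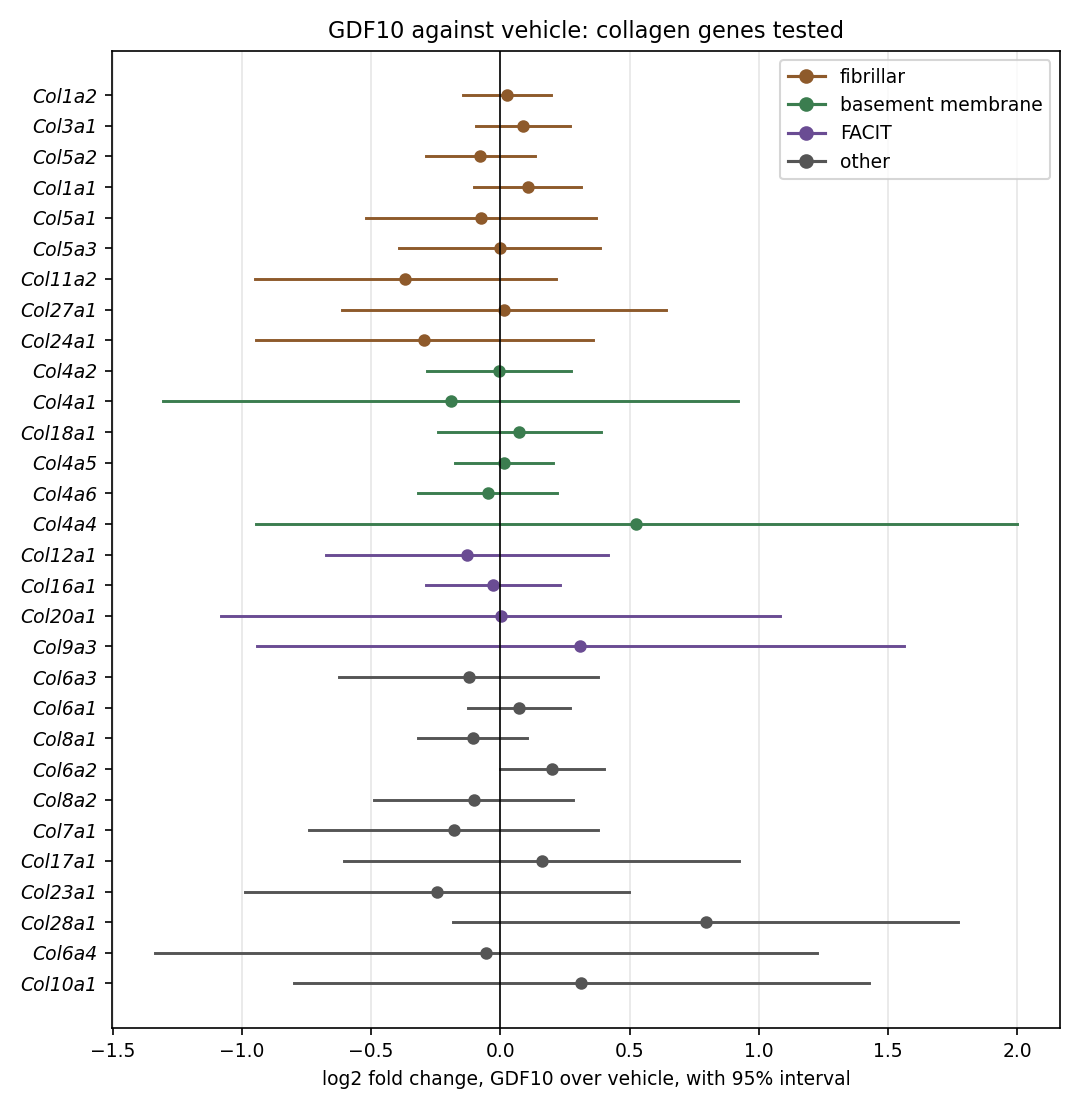
Points are log2 fold changes of GDF10 over vehicle for the 30 collagen genes tested, lines their 95% intervals from edgeR's quasi-likelihood fit, and colours the class. Intervals are narrow for well-counted chains such as Col1a2 (−0.14 to 0.20) and wide for Col4a1 (−1.30 to 0.92) and for chains below 1 CPM.

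Among fibrillar chains, those of types I, III and V were well counted and the other 5 stayed under 10 CPM. Col1a2, the alpha 2 chain of type I collagen (chromosome 6, 4504814 to 4541544), stood at 3248 and 3496 CPM in GDF10 1 and GDF10 2, against 3256 and 3365 CPM in vehicle 1 and vehicle 2. It ranked 7th of all genes by CPM. The groups overlapped, and the log2 fold change was 0.03 (SE 0.07, 95% interval −0.14 to 0.20, edgeR adjusted p = 0.962). Col3a1, the single chain of type III collagen (chromosome 1, 45311538 to 45349706), stood at 3088 and 3309 CPM with GDF10 and 2882 and 3133 CPM with vehicle. These also overlapped, with a log2 fold change of 0.09 (SE 0.08, interval −0.09 to 0.27, adjusted p = 0.862). Col1a1, the alpha 1 chain of type I (chromosome 11, 94936224 to 94953042), stood at 923 and 1051 CPM with GDF10 and 876 and 958 CPM with vehicle. GDF10 1 lay between the vehicle libraries, and the log2 fold change was 0.11 (SE 0.09, interval −0.10 to 0.31, adjusted p = 0.858). It was 0.20 without GDF10 replicate 1 and 0.01 without GDF10 replicate 2.

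Type V collagen co-assembles with type I and sets the diameter of its fibrils. Its Col5a2 chain stood at 902 and 1052 CPM with GDF10, against 1002 and 1060 CPM with vehicle. Col5a1 stood at 326 and 439 CPM with GDF10 and 375 and 429 CPM with vehicle. Col5a3, the least abundant chain of the type, stood at 142 and 187 CPM with GDF10 and 154 and 176 CPM with vehicle. In all 3 GDF10 1 was the lowest library, and for Col5a1 and Col5a3 GDF10 2 was the highest.

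The remaining fibrillar chains were scarce. Col11a2, a minor chain of cartilage fibrils, had 3.30 and 4.88 CPM with GDF10 and 5.96 and 4.59 CPM with vehicle (log2 fold change −0.37, interval −0.95 to 0.22, edgeR adjusted p = 0.845), and −0.12 without GDF10 replicate 1 against −0.68 without GDF10 replicate 2. Col27a1, of cartilage, had 1.87 and 1.64 CPM with GDF10 and 1.90 and 1.55 CPM with vehicle. Col24a1 had 1.401 and 1.52 CPM with GDF10, just under the 1.57 and 2.03 CPM with vehicle, from 42 and 53 counts against 56 and 60 counts. Col2a1, the main fibril chain of cartilage, had 0 counts in both GDF10 libraries and 2 and 0 in vehicle 1 and vehicle 2. Col11a1 had 0 and 2 counts with GDF10 and 0 in both vehicle libraries.

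Per exon length, Col3a1 averaged 947 ± 74.9 TPM with GDF10 and 914 ± 60.7 TPM with vehicle, and Col1a2 averaged 788 ± 64.96 TPM with GDF10 and 794 ± 24.3 TPM with vehicle (SD, n = 2 each). Col1a1 averaged 437 ± 53.2 TPM with GDF10 and 417 ± 29.3 TPM with vehicle. The Col1a1 to Col1a2 ratio of TPM was 0.538 and 0.569 in the GDF10 libraries and 0.510 and 0.539 in the vehicle libraries. As background, the type I protein holds more alpha 1 than alpha 2 chains. The order of Col3a1 and Col1a2 depended on the length used. The annotation gives Col1a2 12426 exon bases in all but 5348 in its longest transcript, and with the latter length their means over all libraries were 1291 and 1447 TPM. The Col1a1 to Col1a2 ratio was then 0.243 to 0.271.

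Ordered by mean TPM, the 18 members with at least 10 CPM ran Col3a1, Col1a2, Col1a1, Col6a1, Col5a2, Col6a3, Col4a2, Col4a1, Col5a1, Col12a1, Col8a1, Col5a3, Col6a2, Col16a1, Col18a1, Col4a5, Col4a6 and Col8a2. Of their 17 neighbouring pairs, 13 kept this order in all 4 libraries. The neighbours that did not were Col4a1 and Col5a1, Col12a1 and Col8a1, Col8a1 and Col5a3, and Col5a3 and Col6a2. With the longest transcript as length, Col5a2 (351 TPM on average) also stood above Col6a1 (320 TPM), and Col8a1 and Col6a2 above Col12a1 (86.9, 84.2 and 79.3 TPM).

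**Figure D3:**
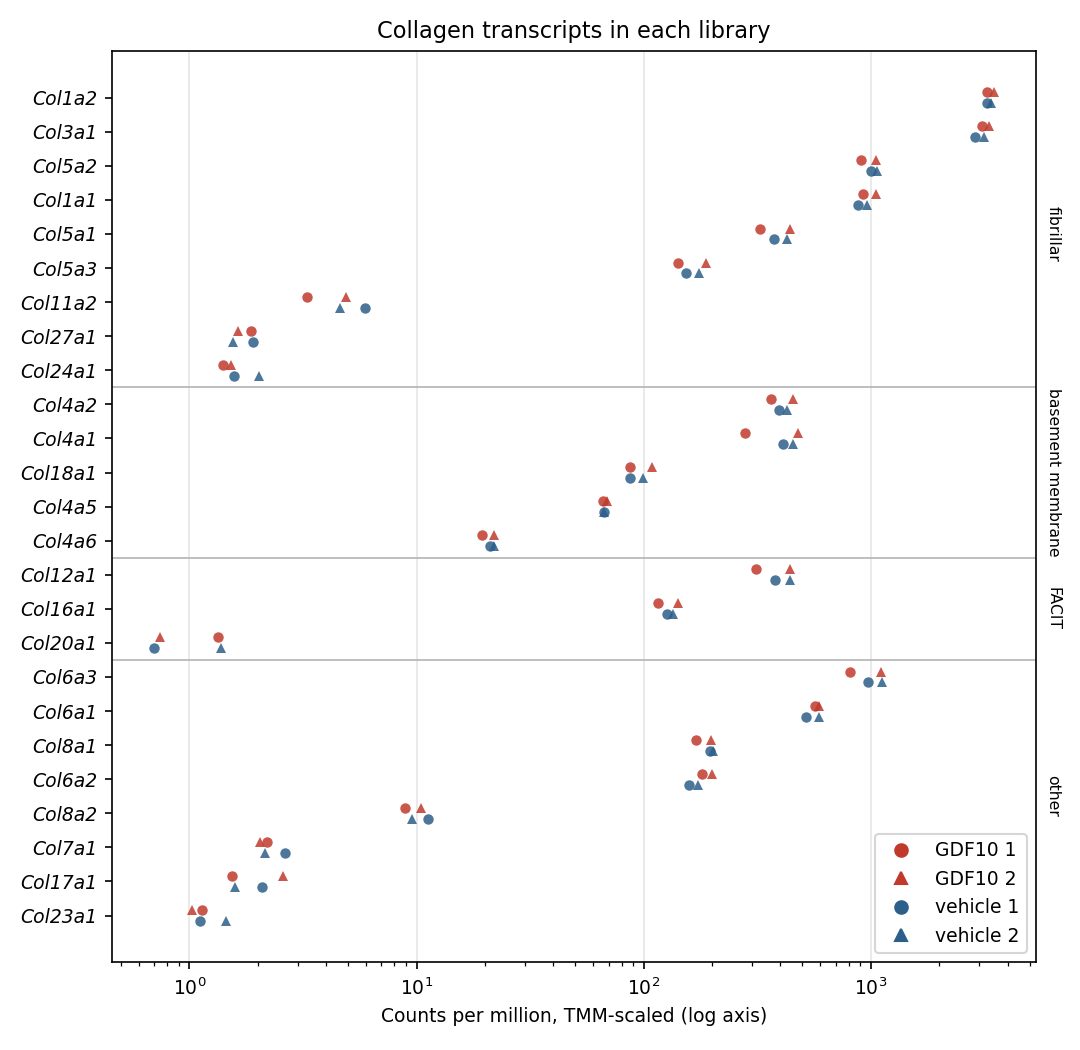
Each point is the TMM-scaled CPM of 1 library on a log axis for the 25 collagen genes with a mean of at least 1 CPM, by class. In each gene's row the GDF10 points are drawn over the vehicle points, a placement that says nothing about level. Levels run from 3496 CPM for Col1a2 to 0.700 CPM for Col20a1, and GDF10 1 lies left of GDF10 2 for every gene above 10 CPM on average.

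Type IV collagen genes lie in head-to-head pairs, and the 3 pairs stood at very different levels. The starts of Col4a1 and Col4a2 (chromosome 8) overlap by 22 bases, and these chains form the common basement membrane network. Col4a2 stood at 365 and 455 CPM with GDF10 and 395 and 427 CPM with vehicle, with the vehicle libraries inside the GDF10 range (log2 fold change −0.00435, SE 0.11, interval −0.28 to 0.27, edgeR adjusted p = 0.997). Col4a1 stood at 278 and 478 CPM with GDF10, so that both vehicle libraries, at 410 and 453 CPM, lay between them. Its log2 fold change was −0.19 (SE 0.34, interval −1.30 to 0.92, adjusted p = 0.938). Without GDF10 replicate 2 it was −0.63 with an adjusted p of 0.00822, the only call of a collagen gene in any fit, and without GDF10 replicate 1 it was 0.15 with an adjusted p of 0.974. Each of these fits holds 1 GDF10 library, which is assumed to vary like the vehicle pair, although the GDF10 libraries differed by more for this gene. The Col4a1 to Col4a2 ratio of TPM was 0.675 in GDF10 1 and 0.931 in GDF10 2, against 0.920 and 0.940 in the vehicle libraries. Thus 1 of the 4 libraries set this chain apart from its partner.

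Col4a5 and Col4a6 (chromosome X) start 1308 bases apart. Col4a5 was among the steadiest members, at 66.5 and 68.7 CPM with GDF10 and 66.9 and 67.0 CPM with vehicle (log2 fold change 0.01, interval −0.18 to 0.20, edgeR adjusted p = 0.982). Col4a6 stood at 19.4 and 21.9 CPM with GDF10 and 20.97 and 21.8 CPM with vehicle. Its TPM was 0.246 and 0.269 of that of Col4a5 with GDF10 and 0.264 and 0.274 with vehicle, so Col4a5 was the higher of the pair in all 4 libraries.

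Col4a3 and Col4a4, chains of the mature kidney glomerulus whose genes start 71 bases apart on chromosome 1, were close to the limit of detection. Col4a3 had 2 counts in each GDF10 library and 15 and 2 in vehicle 1 and vehicle 2. Col4a4 had 9 and 16 counts with GDF10 and 6 and 11 with vehicle. A count of 3 equals 0.0840 to 0.101 CPM in these libraries, for counting error only. Col18a1, whose C-terminal fragment is endostatin, stood at 86.7 and 109 CPM with GDF10 and 86.7 and 99.3 CPM with vehicle (log2 fold change 0.07, interval −0.24 to 0.39). The related Col15a1 had 2 counts in each GDF10 library and 0 in both vehicle libraries, too few for a fold.

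Among FACIT collagens Col12a1 and Col16a1 were the main chains. Col12a1, found on type I fibrils of tendon and muscle sheaths, stood at 314 and 438 CPM with GDF10 and 380 and 442 CPM with vehicle. GDF10 1 was lowest and the other 3 libraries lay closer together (log2 fold change −0.13, SE 0.20, interval −0.67 to 0.42, edgeR adjusted p = 0.919). Col16a1 stood at 115 and 142 CPM with GDF10 and 127 and 135 CPM with vehicle (log2 fold change −0.03, SE 0.11, interval −0.29 to 0.23, adjusted p = 0.9752). For Col16a1 the GDF10 libraries enclosed the vehicle pair.

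Col20a1 had 1.33 and 0.746 CPM with GDF10 and 0.700 and 1.39 CPM with vehicle, and it shares 79 exon bases with a sense-overlapping transcript. That transcript had 261 and 254 counts with GDF10 and 308 and 221 with vehicle. Col20a1 itself had 40 and 26 counts with GDF10 and 25 and 41 with vehicle, so its level may depend on how shared reads were assigned. Col9a3, of type IX collagen of cartilage, had 18 and 17 counts with GDF10 and 10 and 18 with vehicle. Col14a1 had 2 to 4 counts and Col19a1 0 to 2 counts per library. Col9a1, Col9a2 and Col22a1, the last a chain of tissue junctions such as the myotendinous junction, had 0 counts in all 4 libraries.

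Of the remaining collagens type VI, the beaded filament collagen, was the main one, with 17.2% and 17.3% of summed collagen TPM with GDF10 and 16.9% and 17.8% with vehicle. Col6a1 stood at 566 and 593 CPM with GDF10 and 516 and 588 CPM with vehicle (log2 fold change 0.07, SE 0.08, interval −0.13 to 0.27, edgeR adjusted p = 0.892). Col6a3, the longest chain of the type, stood at 810 and 1112 CPM with GDF10 and 968 and 1124 CPM with vehicle (log2 fold change −0.12, SE 0.18, interval −0.62 to 0.38, adjusted p = 0.917). Col6a2 stood at 181 and 201 CPM with GDF10, both above the 159 and 173 CPM with vehicle.

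The log2 fold change of Col6a2 was 0.20 (SE 0.08, interval 0.00067 to 0.40), with the lowest p among collagen genes, 0.0494 unadjusted and 0.825 adjusted over all genes tested. Its adjusted p was 0.349 or higher in every alternative fit. The Col6a2 to Col6a1 ratio of TPM was 0.168 and 0.178 with GDF10 and 0.162 and 0.155 with vehicle. The Col6a3 to Col6a1 ratio was 0.524 in GDF10 1 and 0.686 in GDF10 2, against 0.687 and 0.700 with vehicle. Col6a1 and Col6a2 lie on chromosome 10 in the same direction, 85161 bases apart. The Col6a4, Col6a5 and Col6a6 cluster on chromosome 9 was scarcely detected: Col6a4 had 12 and 23 counts with GDF10 and 27 and 10 with vehicle, Col6a5 had 2 counts in vehicle 2 and 0 elsewhere, and Col6a6 had 0 in all 4 libraries.

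Type VIII collagen forms a hexagonal network in vessel walls and the cornea. Col8a1 stood at 170 and 199 CPM with GDF10 and 196 and 201 CPM with vehicle (log2 fold change −0.11, SE 0.09, interval −0.32 to 0.11, edgeR adjusted p = 0.858). Col8a2 stood at 8.88 and 10.5 CPM with GDF10 and 11.3 and 9.53 CPM with vehicle. For both chains GDF10 1 was the lowest library, and GDF10 2 fell within the vehicle range.

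Col7a1, of the anchoring fibrils of skin, had 2.20 and 2.04 CPM with GDF10 and 2.63 and 2.16 CPM with vehicle. Col17a1, a transmembrane collagen of epithelial hemidesmosomes, had 1.53 and 2.58 CPM with GDF10 and 2.10 and 1.59 CPM with vehicle. Col23a1, also transmembrane, had 1.13 and 1.03 CPM with GDF10 and 1.1197 and 1.45 CPM with vehicle. In each of these the 2 groups overlapped.

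Col28a1 had the highest log2 fold change of the 30, 0.79 (SE 0.42, interval −0.18 to 1.77, edgeR adjusted p = 0.826), from 28 and 25 counts with GDF10 and 18 and 13 counts with vehicle. Col10a1, the collagen of hypertrophic cartilage, had 16 and 17 counts with GDF10 and 17 and 10 with vehicle. These counts overlap between the groups. The groups separated only after scaling, at 0.534 and 0.488 CPM with GDF10 and 0.476 and 0.338 CPM with vehicle. Col10a1 also shares 18 exon bases with Nt5dc1 on the other strand, which had 470 to 687 counts per library. Col25a1 had 9 and 4 counts with GDF10 and 15 and 4 with vehicle. Col13a1, a transmembrane collagen of the neuromuscular junction, and Col26a1 had 0 counts in all 4 libraries.

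Libraries of the same group also differed from each other. All 18 members with at least 10 CPM were lower in GDF10 1 than in GDF10 2, against 49.5% of 9715 genes at that level. In the vehicle group 17 of the 18 were lower in vehicle 1 than in vehicle 2, Col8a2 being the exception, against 47.8% of genes at that level. The median log2 ratio of the first library over the second was −0.23 with GDF10 and −0.12 with vehicle. It went past 0.3 in either direction for 7 of the 18 with GDF10, or 38.9%, and for 0 with vehicle, against 13.7% and 7.72% of all genes at that level.

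The gap between GDF10 libraries ran from −0.05 for Col4a5 to −0.78 for Col4a1, which exceeded that of 93.4% of genes tested. Col12a1 had a gap of −0.48, Col6a3 −0.46, Col5a1 −0.43 and Col5a3 −0.40, while Col3a1 and Col1a2 had −0.10 and −0.11. Once the exon length trend was taken out of every library, 15 of the 18 were still lower in GDF10 1 than in GDF10 2, with a median gap of −0.18, and the gap of Col4a1 was −0.70. Of all genes at that level 43.4% were then lower in GDF10 1. In the vehicle group 15 of the 18 were also still lower in vehicle 1 than in vehicle 2, with a median gap of −0.098. Between GDF10 libraries 4 of the 18 collagen genes then had a gap past 0.3. The shares of all genes for these vehicle and past-0.3 counts are not given here. The gap between GDF10 libraries was then −0.29 for Col12a1 and −0.30 for Col6a3. Across the 30 members tested, the same rho in GDF10 1 was −0.28, a description over genes that share libraries. Whether RNA quality or cell state differed between these libraries was not tested.

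**Figure D4:**
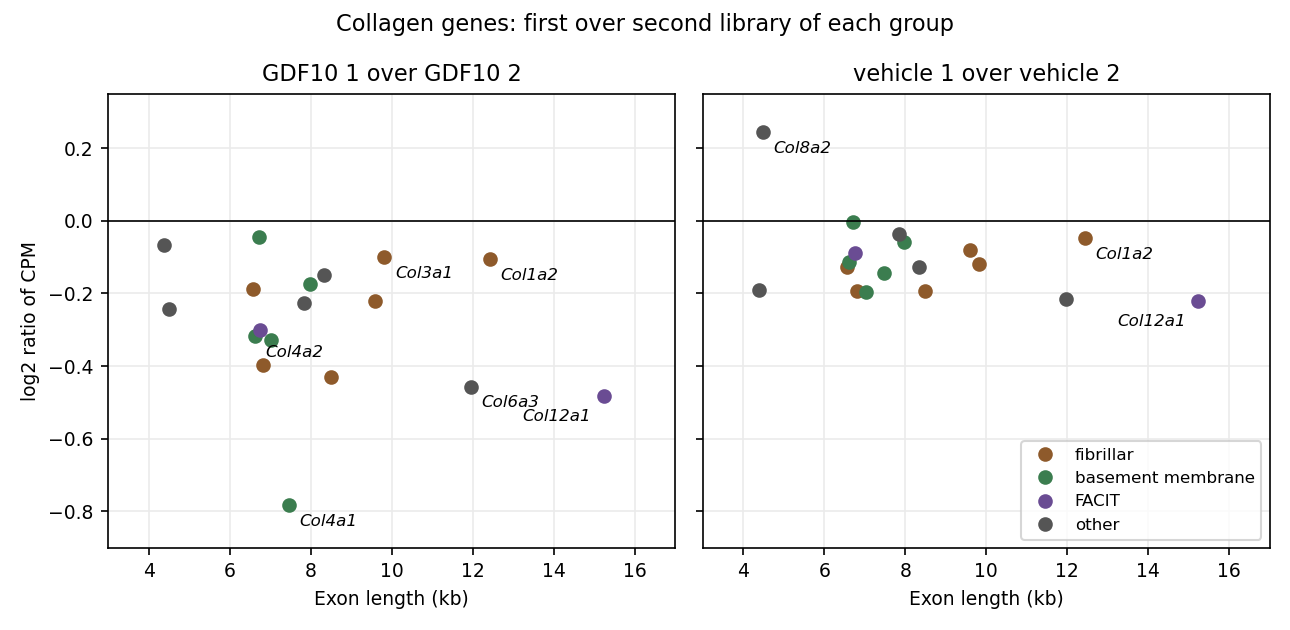
Each point is 1 of the 18 collagen genes with at least 10 CPM, placed by exon length (kb) and by the log2 ratio of CPM in the first over the second library, for GDF10 on the left and vehicle on the right. All 18 points lie below 0 in the GDF10 panel, Col4a1 lowest at −0.78, and 17 of 18 in the vehicle panel.

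Genes that make, process, bind or remove collagen were counted in 7 lists by role. The count table held 77 such genes, some of them, such as Tll1 and Gp6, with 0 counts in every library. Of the 77, 66 were tested and 0 passed in edgeR. At an unadjusted p under 0.05 in edgeR 2 were higher and 2 lower, and the median log2 fold change was 0.02. Over all genes tested these shares were 0.162% called, 2.44% higher and 3.49% lower. By list, 0 of 18 hydroxylation and folding genes, 0 of 9 export genes, 0 of 10 propeptide processing and crosslinking genes, 0 of 8 fibril partners, 0 of 5 receptors, 0 of 8 turnover genes and 0 of 8 regulators passed. DESeq2 called 1 of the 66, Ddr2, and limma-voom 0.

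Ddr2, which encodes a receptor tyrosine kinase activated by fibrillar collagen, stood at 175 and 228 CPM with GDF10, both well above the 87.0 and 95.7 CPM with vehicle. Its log2 fold change was 1.14 (SE 0.14, interval 0.79 to 1.49). In edgeR p was 0.000269 unadjusted and 0.1097 adjusted. The adjusted p was 4.01e-10 with DESeq2 and 0.145 with limma-voom. The adjusted p was 0.00029 without GDF10 replicate 1, 0.00117 without GDF10 replicate 2, 0.278 without vehicle replicate 1 and 0.159 without vehicle replicate 2. In each of these fits 1 group holds a single library that is assumed to vary like the other group, so the smaller values are not added support. With the exon length trend removed the adjusted p was 0.00849. An antisense gene shares 90 exon bases with it and had at most 13 counts in a library. Itgb1, the beta chain of the collagen-binding integrins, stood at 834 and 879 CPM with GDF10 and 882 and 949 CPM with vehicle.

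In the making of the chains, the prolyl hydroxylase subunit P4hb stood at 1448 and 1399 CPM with GDF10 and 1363 and 1429 CPM with vehicle. Plod2, a lysyl hydroxylase that prepares telopeptides for crosslinks, stood at 109 CPM in each GDF10 library, below the 117 and 141 CPM with vehicle (log2 fold change −0.24, edgeR adjusted p = 0.825). Creb3l1, a transcription factor of the secretory pathway that acts on Col1a1 in bone, stood at 279 and 286 CPM with GDF10, above the 244 and 248 CPM with vehicle (log2 fold change 0.20, adjusted p = 0.815). Sec31a, a coat protein of the vesicles that leave the endoplasmic reticulum, stood at 308 and 328 CPM with GDF10 and 322 and 308 CPM with vehicle.

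Outside the cell, Lox, the crosslinking lysyl oxidase, stood at 1402 and 1496 CPM with GDF10, below the 1504 and 1685 CPM with vehicle. The log2 fold change of Lox was −0.14 (interval −0.33 to 0.05, edgeR adjusted p = 0.834). Pcolce, an enhancer of propeptide cleavage, stood at 692 and 652 CPM with GDF10 and 633 and 588 CPM with vehicle. Its log2 fold change was 0.14 (edgeR adjusted p = 0.833). Postn, periostin of the matrix, stood at 215 and 221 CPM with GDF10, below the 248 and 252 CPM with vehicle (log2 fold change −0.20, adjusted p = 0.815, and −0.0467 with the GC trend removed and −0.12 with the exon length trend removed). Fn1, fibronectin, was the best counted of the listed genes, at 7460 and 9212 CPM with GDF10 and 8048 and 9521 CPM with vehicle. Of the enzymes of turnover, Mmp14 stood at 362 and 378 CPM with GDF10 and 369 and 356 CPM with vehicle, and Mmp9 at 68.0 and 73.4 CPM with GDF10 and 56.7 and 66.7 CPM with vehicle (log2 fold change 0.20, adjusted p = 0.833). Among regulators Cebpb, a transcription factor, stood at 268 and 252 CPM with GDF10, above the 241 and 214 CPM with vehicle (log2 fold change 0.19, adjusted p = 0.825), and Ybx1 at 636 and 650 CPM with GDF10 and 625 and 644 CPM with vehicle.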

How the data were processed

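The authors deposited raw counts, 1 whole number for each gene and library. The submitters' processing notes name HISAT2 2.0, StringTie 1.3.3b, DESeq2 1.12.4, Trimmomatic 0.36, FastQC 0.11.2, bedtools 2.26.0 and build mm10, without roles. How reads were counted (tool, annotation, strand, mates of a pair singly or once) is not given in the sources used here, so small counts may stand for fewer fragments. In every library more genes had 4 counts than 3, 6 than 5 and 8 than 7. In GDF10 1 the numbers were 727 against 575, 449 against 356 and 293 against 264. The order was the other way for 2 counts against 1 (1422 against 1715 in GDF10 1). Whether mates were counted singly was not tested. Of 51826 identifiers 51633 matched GENCODE release M21, which gave symbols, mm10 positions and exon lengths. Of the 44 collagen genes 13 share exon bases with another gene in the table, so their counts may be split with it: Col3a1 shares 141 bases with a miRNA gene on its strand that had 1318 to 3281 counts, and Col4a1 shares 22 with Col4a2. Groups and replicate numbers came from the sample titles. Columns headed Con were read as control and matched to the vehicle titles by number, Con being the only name besides GDF10.

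Counts were tested over the whole table in R 4.3.3 with edgeR 4.0.16 (filterByExpr, TMM, robust dispersions, glmQLFTest, no covariate), with Benjamini-Hochberg adjustment over 15467 genes and a threshold of 0.05. Standard errors and 95% intervals were derived from each log2 fold change with its F. TPM used the union of exons. No 2 libraries agreed within sampling noise (chi-square per degree of freedom 14.9 to 29.2). The labels do not say that replicates were separate cultures, so p-values measure only how these libraries vary. Alternatives were other scalings and filters, DESeq2 1.42.0, limma-voom (limma 3.58.1), non-robust dispersions, a replicate block, removal of exon length or GC trends (loess, span 0.3), counts summed over genes sharing exon bases, a threshold of 0.1 and each library left out. The members, lists and alternatives were chosen with earlier results of these data known. Per library values are given for members with at least 1 CPM on average, and fold changes with tests for the 5 members of lowest p and the 2 of highest TPM per class; in each pathway list the gene of lowest p and the gene of highest CPM are named. Other fold changes and counts of low members were added after their values were seen.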

Additional observations from a re-analysis of the deposited data

How the results depend on the processing

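No collagen gene passed in 15 of the 16 other fits or at an adjusted p of 0.1. Leaving out each replicate gave 0 to 1, the 1 being Col4a1 without GDF10 replicate 2. The number of all genes called was 25, but 65 with DESeq2, 11 with limma-voom, 9 with dispersions not robust and 27 to 224 with a library left out. The pathway count of 0 became 1, Ddr2, with DESeq2, the replicate block, the exon length trend removed and both together, and was 0 to 1 with a library left out. The causes were not tested. The median log2 fold change of collagen genes ran from −0.15 to 0.10 with a library left out and stayed within the spread between replicates under the other alternatives. The fibrillar share of summed TPM was 74.8% with the longest transcript as length, and 66.3% to 67.2% with a library left out. The difference in the collagen share of counts ran from −0.0767 to 0.0899 percentage points. Same-numbered libraries deviated with a correlation of 0.07 across genes. With 2 libraries per group this cannot decide whether the numbers pair them, and pairing was not tested. Of 18 collagen genes with at least 10 CPM, 18 were lower in GDF10 1 than in GDF10 2, beside 49.5% of genes at that level. In the vehicle group 17 were lower in vehicle 1 than in vehicle 2, beside 47.8%. The replicate block moved the number of all genes called to 23, and Ddr2 to an adjusted p of 0.00956.

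Signs of small log2 fold changes turned for Col1a2 with the GC trend removed (−0.0124), for Col4a2 with no filter (0.00032), and with the exon length trend removed for Col4a2 (0.0444), Col12a1 (0.0032) and Col16a1 (0.0248). With the replicate block and the exon length trend removed they turned for Col4a2 (0.0395) and Col16a1 (0.0203). With a library left out, Col1a2 ran from −0.0267 to 0.0783, Col8a1 from −0.22 to 0.0013, Col4a2 from −0.17 to 0.15, Col4a1 from −0.63 to 0.15, Col12a1 from −0.39 to 0.0933, Col16a1 from −0.18 to 0.11, Col6a1 from −0.0204 to 0.17 and Col6a3 from −0.37 to 0.0875. Depth limits the 19 members under 1 CPM: 14 had too few counts to be tested, and the intervals of the other 5 reached past a log2 fold change of 1.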

Other observations

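Sox9 activates cartilage collagen genes in chondrocytes. It stood at 65.6 and 66.7 CPM in GDF10 1 and GDF10 2, and at 64.7 and 65.9 CPM in vehicle 1 and vehicle 2. In the same libraries Col2a1 had 0 and 0 counts with GDF10 and 2 and 0 with vehicle, and Col9a1, Col9a2 and the cartilage proteoglycan gene Acan had 0 in all 4. Other chains of cartilage were counted: Col11a2 had 99 and 170 counts with GDF10 and 213 and 136 with vehicle, and Col27a1 had 56 and 57 with GDF10 and 68 and 46 with vehicle. Runx2, of the osteoblast lineage and hypertrophic cartilage, stood at 57.1 CPM in each GDF10 library and at 60.4 and 68.1 CPM with vehicle. Beside it, Col10a1 had 10 to 17 counts per library. Of 6 osteoblast markers 1 reached 1 CPM on average, Runx2. The other osteoblast markers had from 0 counts (Ibsp, in all 4 libraries) to 30 (Dmp1, in vehicle 2). These genes were picked out after their values were seen.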
